A study of Mus musculus with 656 samples.

Results

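The libraries described here are the 8 of mouse 3T3 fibroblasts (a long-established line from embryos) that carry the stimulus label IL-1β and the time 60 min with SC-514 at either 100 µM or 0 µM. The series has 41 such groups of 4 libraries each, and 4 libraries belong to each of the groups described here. They were chosen by the labels for stimulus, time and concentration, through the column that each sample record names, and the 4 records that name the same column count as 1 library. Cells were given medium with SC-514, a small-molecule inhibitor of the kinase IKKβ, 1 h ahead of the cytokine, at 0, 25, 50 or 100 µM, and then IL-1β at 1 ng/ml. The 0 µM group differs from the 100 µM group in the inhibitor alone, as far as the labels go, and both groups received the cytokine. The labels do not state a vehicle, there is no group with inhibitor and no cytokine, and no label ties the 4 libraries of a group to separate cultures. The p-values thus measure the spread among libraries within groups, estimated over all 41 groups of the series, and this spread may be technical. Groups used beside them are the unstimulated cells without inhibitor, the IL-1β libraries with 25 and 50 µM at 60 min and with 0 and 100 µM at 15, 30, 120 and 360 min, and the libraries labelled TNF-α (10 ng/ml) with 0 and 100 µM at 60 min. Each of these groups also has 4 libraries. The study asked what selective inhibition of IKKβ does to transcription driven by NF-κB under either cytokine.

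IL-1β binds a receptor on fibroblasts that, through MYD88 and IRAK proteins, activates the IKK complex, in which IKKβ is one of the catalytic subunits. IKKβ phosphorylates IκBα, which is then degraded and releases the NF-κB dimer of RelA and p50 to enter the nucleus. There NF-κB raises cytokine, chemokine, adhesion and protease genes and also the genes of its own inhibitors, among them Nfkbia (IκBα) and Tnfaip3 (A20), which close a negative feedback loop. The same receptor activates MAP kinases, which raise immediate early genes such as Fos and Egr1 in part by routes other than NF-κB.

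The stimulus labels carry a conflict, since the prefix in the titles of the records labelled IL-1β is the one that marks other libraries in the column names, and the stimulus label with the named column was followed. Nfkbiz, a gene of a nuclear IκB protein that is known to respond to IL-1 receptor signalling more than to TNF, goes against these labels. Its normalised count was 52.8 ± 6.92 CPM (counts scaled to a common library total; SD, n = 4) in the 0 µM group with the IL-1β label and 482 ± 20.3 CPM in its counterpart with the TNF-α label at the same time, against 32.1 ± 7.52 CPM without stimulus. Libraries are therefore named by label throughout. Totals were 1481579 to 1633647 counts at 0 µM and 1068541 to 1490338 at 100 µM, so that 3 counts correspond to 1.85 to 2.79 CPM. Mitochondrial transcripts made up 0.539% to 0.626% of the counts at 0 µM and 0.578% to 0.743% at 100 µM, and 13737 to 14563 against 13354 to 13896 genes had a count. Number 1 of the 0 µM libraries held the highest of these gene numbers. It also differed most from the others of its group, with a chi-squared per degree of freedom of 1.95 to 2.41. The remaining pairs at 0 µM gave 1.32 to 1.76, and the pairs at 100 µM gave 1.22 to 1.49. All 12 fibroblast markers checked had counts, with summed levels of 8936 to 9500 CPM at 0 µM and 8637 to 9096 CPM at 100 µM. Of 26 markers of other cell types, 23 were among the genes counted and 6 were abundant enough to be tested. For 11 of the 26 there was no count in either group or no entry at all (Epcam, Krt14, Krt5, Cdh5, Kdr, Tek, Adgre1, Myog, Myod1 and Alb among them). The summed level of the 23 was 157.5 to 171.6 CPM at 0 µM and 184.8 to 233 CPM at 100 µM. Lpl, the lipoprotein lipase gene, rose from 103 to 114 CPM at 0 µM to 151 to 191 CPM at 100 µM. Cd14, a monocyte marker that fibroblasts also express, fell from 18.5 to 27.4 CPM to 1.69 to 9.78 CPM.

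Promoter sequences are shown for the 3 falling cytokine and NF-κB feedback genes of smallest p that the reference table holds (Il6, Tnfaip3 and Ccl20), for the rising gene of smallest p (H1f0) and for Nfkbia, which was added after its values were seen because it barely fell. Each run holds the 250 bases before the RefSeq start site on GRCm38.p6, read 5′ to 3′ on the gene's strand, and capitals mark matches on either strand to the 10-base NF-κB consensus. Il6 (chr5:30012864-30013113, plus strand) has its match 44 bases before the start. Tnfaip3 (chr10:19015411-19015660, minus strand) has matches at 125 and 12 bases, Ccl20 (chr1:83116516-83116765, plus strand) at 80 bases and Nfkbia (chr12:55492648-55492897, minus strand) at 29 bases. H1f0 (chr15:79027962-79028211, plus strand) has matches at 182 and 103 bases. The gene positions given further on come from another annotation, in which Tnfaip3 starts upstream of its RefSeq start, so that nearly all of its run lies inside the gene as placed there, and H1f0 starts downstream of it.
Il6: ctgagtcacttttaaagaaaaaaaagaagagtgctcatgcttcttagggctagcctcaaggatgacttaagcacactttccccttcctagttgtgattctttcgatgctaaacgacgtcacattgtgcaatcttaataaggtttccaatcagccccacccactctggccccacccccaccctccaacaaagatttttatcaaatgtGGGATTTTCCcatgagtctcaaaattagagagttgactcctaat
Tnfaip3: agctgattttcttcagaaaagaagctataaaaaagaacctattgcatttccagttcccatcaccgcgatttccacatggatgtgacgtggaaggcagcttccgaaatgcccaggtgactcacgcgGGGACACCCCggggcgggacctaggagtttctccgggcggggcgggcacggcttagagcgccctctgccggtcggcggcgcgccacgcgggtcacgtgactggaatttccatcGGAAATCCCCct
Ccl20: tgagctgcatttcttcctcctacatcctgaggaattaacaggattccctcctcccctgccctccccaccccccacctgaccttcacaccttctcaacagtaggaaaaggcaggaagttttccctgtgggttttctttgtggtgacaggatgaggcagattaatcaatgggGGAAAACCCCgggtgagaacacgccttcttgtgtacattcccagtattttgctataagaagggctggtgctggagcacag
Nfkbia: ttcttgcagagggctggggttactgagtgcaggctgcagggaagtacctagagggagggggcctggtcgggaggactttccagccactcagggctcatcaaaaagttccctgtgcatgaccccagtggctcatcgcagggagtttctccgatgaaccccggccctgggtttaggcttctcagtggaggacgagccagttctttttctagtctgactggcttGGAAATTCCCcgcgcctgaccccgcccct
H1f0: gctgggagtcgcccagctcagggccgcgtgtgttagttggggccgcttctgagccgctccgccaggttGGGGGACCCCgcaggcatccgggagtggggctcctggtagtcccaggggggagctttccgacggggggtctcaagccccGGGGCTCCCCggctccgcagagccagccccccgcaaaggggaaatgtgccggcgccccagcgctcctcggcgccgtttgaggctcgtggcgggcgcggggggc
Genes on both sides of the comparison thus carry the consensus in this window. Windows of 300 bases, from 250 before to 50 after the start, were searched for the genes that the promoter reference holds, which are a part of those counted. The consensus was found in 10.3% of the 8497 genes tested that have a window. Of the 269 genes lower at 100 µM by 2-fold or more 192 have a window, and 16.1% of these held it. Of the 137 higher by 2-fold or more 106 have a window, and 8.49% of these held it. TGANTCA, a motif bound by AP-1, was found in 4.51%, 13% and 4.72% of the same windows, and on both strands at once because it is a palindrome. Among the 1245 genes with a window that were called lower by any amount the shares were 12% and 6.1%. Among the 982 called higher they were 8.45% and 3.46%. Among all 13779 promoters of the table the shares were 10.1% and 6.13%. These matches describe the letters in the window.

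Adding 100 µM SC-514 changed 2791 of 10766 genes tested (25.9%), of which 1552 were lower (14.4% of the genes tested) and 1239 higher (11.5%) than at 0 µM, by edgeR's quasi-likelihood test at a Benjamini-Hochberg adjusted p of 0.05. These shares are the background for the counts of each list. With RLE (relative log expression) scaling in place of TMM (trimmed mean of M values), 1423 were lower and 1445 higher, so that 50.4% rather than 44.4% of the calls were higher. Decreases reached further than increases, since 269 genes were lower and 137 higher by 2-fold or more. Il6, Serpinb2, Has2 and Pde4b were among the large decreases, and Fosb, Hist1h1c and Id2 among the large increases. Fewer cells of a kind and less RNA per cell cannot be told apart in bulk libraries. Of 448 genes (4.16% of those tested) that were higher in the libraries labelled TNF-α at 60 min than in unstimulated ones, none of which enter this comparison, 217 (48.4%) were lower and 57 (12.7%) higher at 100 µM, with a median log2 change of -0.30 against 0.01 over all genes.

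**Figure D1:**
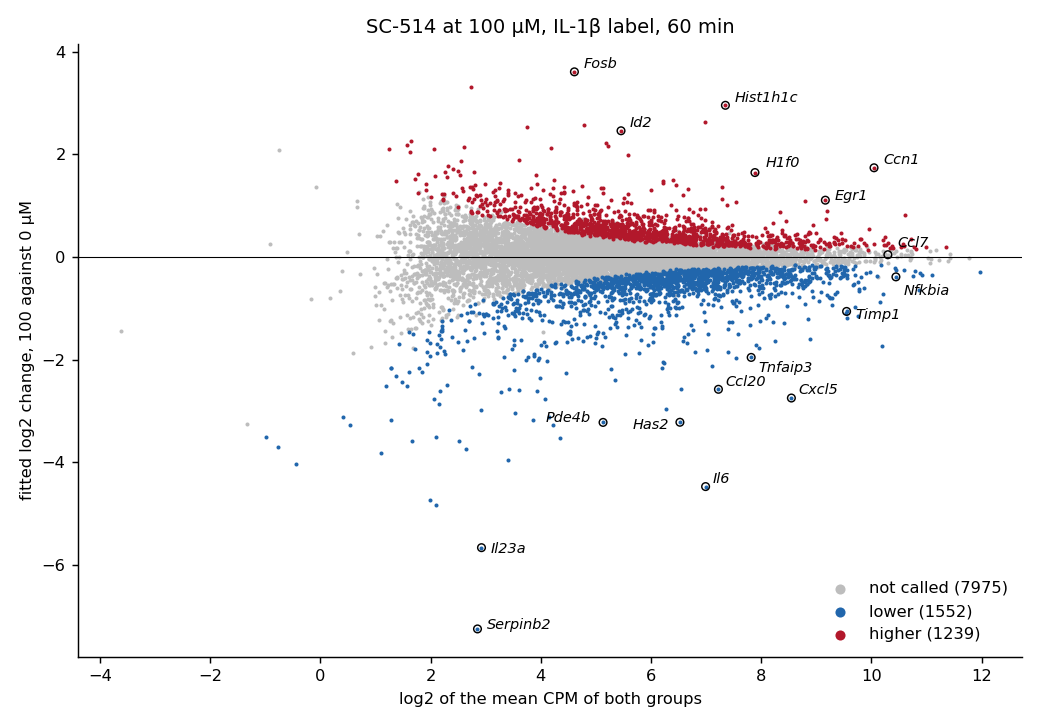
Fitted log2 change at 100 µM against 0 µM (vertical axis) for each gene tested, against the log2 of its mean CPM over both groups (horizontal axis), 60 min after the IL-1β label. The 1552 genes called lower are blue, the 1239 called higher red and the others grey, and Il6 and Serpinb2 lie far below the line of no change while Hist1h1c and Fosb lie above it.

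Most cytokine and chemokine genes fell. Of 27 tested members of the list, 20 were lower and 1 was higher, with a median log2 change of -1.55, against 14.4% lower and a median of 0.01 over all genes. The member that rose, named after its values were seen, was Cxcl12, a chemokine gene that stromal cells express without stimulus, which went from 339.6 to 418 CPM to 555 to 643 CPM (log2 change 0.63, adjusted p = 7.12e-10). In the libraries without inhibitor 18 of the 27 were higher than in unstimulated cells, where 2.74% of all genes were, in a comparison that shares the 0 µM libraries. Il6 encodes an inflammatory cytokine of the acute phase (chromosome 5, 30013114 to 30019981, plus strand, protein-coding, GRCm38). It measured 293, 249.9, 199 and 233 CPM in the 4 libraries at 0 µM and 11.7, 12.2, 4.65 and 14.3 CPM at 100 µM. Each library with the inhibitor lay far below each one without it, and all 4 were near the unstimulated level of 11.7 ± 5.65 CPM. The log2 change was -4.47 (SE 0.29, adjusted p = 1.39e-26), which left 4.41% of the 0 µM level.

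Ccl20, the gene of a chemokine for dendritic cells and lymphocytes (chromosome 1, 83116766 to 83119167, plus strand), stood at 234, 251, 263 and 277 CPM at 0 µM. At 100 µM it stood at 43.7, 65.4, 30.7 and 31.2 CPM, a log2 change of -2.58 (SE 0.22, adjusted p = 4.37e-19). The groups did not overlap, and the level stayed above the 1.95 ± 1.45 CPM of unstimulated cells. Cxcl5, a neutrophil chemokine gene (chromosome 5, 90759360 to 90761624, plus strand), went from 677, 638, 612 and 678 CPM to 88.1, 115, 84.6 and 101 CPM. Its log2 change was -2.75 (SE 0.17, adjusted p = 3.39e-28), and all 4 treated libraries lay below the unstimulated mean of 134.9 ± 12.9 CPM. Its neighbours in the CXC chemokine cluster fell by different amounts. Cxcl2 (chromosome 5, 90903871 to 90905938, plus strand) measured 53.6, 28.7, 36.4 and 32.9 CPM at 0 µM and 5.87, 2.62, 2.79 and 0.844 CPM at 100 µM. Cxcl1 (chromosome 5, 90891241 to 90893115, plus strand) measured 1100, 1194, 1211 and 1265 CPM against 584, 559, 558 and 463 CPM. Their log2 changes were -3.52 (SE 0.36) and -1.14 (SE 0.14), so that 8% of the 0 µM level of Cxcl2 and 45.4% of that of Cxcl1 remained. Without library 1 of the 100 µM group, the log2 change of Cxcl2 was -4.15.

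Other cytokine genes were close to absent with the inhibitor. Il23a, which encodes a subunit of interleukin-23, had 14.8, 14.4, 20.6 and 10.3 CPM at 0 µM and a single count in all 4 libraries at 100 µM. Its ratio of 0 to 100 µM was 74.0, with a 95% counting interval of 13.0 to 2956. Il1a, the gene of interleukin-1α, had 8.63, 10.4, 7.55 and 6.85 CPM and likewise 1 count at 100 µM, a ratio of 41.5 (7.12 to 1671). Csf3, the gene of granulocyte colony-stimulating factor, spread more widely at 0 µM, with 14.8, 3.92, 3.43 and 8.90 CPM, and its ratio was 39.05 (6.68 to 1574). These intervals cover counting error only. The fitted log2 changes of Il23a, Il1a and Csf3, which were called lower, became larger by over 1.5-fold without the 1 treated library that held the count, at -7.29 without library 1, -6.47 without library 2 and -6.37 without library 1. Cxcl9, an interferon-inducible chemokine gene, had 25.9 CPM in library 1 and 5.49 to 8.48 CPM in the others at 0 µM, and its log2 change of -3.73 was -2.96 and no longer called without that library.

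Csf2, the gene of granulocyte-macrophage colony-stimulating factor (chromosome 11, 54247271 to 54249667, minus strand), fell less. It measured 143, 130.5, 159 and 151 CPM at 0 µM and 60.7, 45.3, 44.6 and 35.5 CPM at 100 µM, a log2 change of -1.63 (SE 0.18). Ccl9 fell from 209 to 243 CPM to 119 to 136 CPM. The neighbouring monocyte chemokine genes Ccl2 and Ccl7, both raised by the stimulus, moved little. Ccl2 measured 2440, 2589, 2389 and 2369 CPM at 0 µM and 1996, 2048, 1839 and 1837 CPM at 100 µM (log2 change -0.34, SE 0.11, adjusted p = 0.0147). That call was lost without library number 2 or 3 in every group, with adjusted p-values of 0.06 and 0.0861. Ccl7 (chromosome 11, 82045712 to 82047525, plus strand) measured 1292, 1250, 1207 and 1213 CPM at 0 µM and 1297, 1391, 1156 and 1280 CPM at 100 µM. Its groups overlapped, and the log2 difference was 0.05 (SE 0.14, adjusted p = 0.855). The difference between Ccl7 and the cytokine genes above was not tested.

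Genes of the NF-κB system itself were split. Of 26 tested components and feedback genes 10 were lower and 3 higher at 100 µM (median log2 change -0.30). Tnfaip3, whose product A20 edits ubiquitin chains and shuts down signalling to IKK (chromosome 10, 19000910 to 19015657, minus strand), measured 395, 347, 366 and 329 CPM at 0 µM. At 100 µM it measured 101, 112, 83.7 and 72.6 CPM (log2 change -1.96, SE 0.16, adjusted p = 1.34e-19). The groups did not overlap, yet the treated libraries were still well above the unstimulated 4.94 ± 1.67 CPM. Bcl3, a nuclear IκB protein gene, fell from 84.2 to 119 CPM to 25.3 to 39.2 CPM (log2 change -1.66). Nfkbie, which encodes IκBε, fell from 104 to 137.5 CPM to 48.3 to 65.4 CPM (-0.98). Tnip1, the gene of a partner of A20, had a log2 change of -0.61.

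Nfkbia, the gene of IκBα itself (chromosome 12, 55489410 to 55492647, minus strand), kept most of its level at 100 µM. It measured 1643, 1530, 1612 and 1537 CPM at 0 µM and 1375, 1292, 1173 and 993 CPM at 100 µM. All treated libraries were lower, by a log2 change of -0.39 (SE 0.12, adjusted p = 0.00873), and 76.4% of the 0 µM level remained, against 139.7 ± 9.43 CPM without stimulus. That call was lost in several leave-outs, where the log2 change was -0.30 without library 4 of the 100 µM group (adjusted p = 0.075), and -0.37 and -0.32 without number 3 or 4 in every group (adjusted p = 0.0619 and 0.13). Rela, the gene of the transactivating NF-κB subunit, measured 137.5, 135, 149 and 120.5 CPM at 0 µM and 136, 121, 140.4 and 142 CPM at 100 µM. The genes of the kinases Ikbkb (IKKβ) and Chuk (IKKα) measured 36.5 to 58.2 and 49.3 to 67.9 CPM at 0 µM, and 38 to 50.2 and 43.6 to 57.4 CPM at 100 µM. These 3 genes had overlapping groups and log2 differences of -0.01 (SE 0.09), -0.17 (SE 0.15) and -0.29 (SE 0.14), none past the test. Nfkbiz had a log2 difference of -0.30 (SE 0.18, adjusted p = 0.236).

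Of 23 tested genes of the IL-1 and TNF receptor pathways 5 were lower and 3 higher, near the 14.4% and 11.5% of all genes, and their median log2 change was -0.003. Il1rap, which encodes the co-receptor that IL-1 signalling needs, measured 109, 116, 95.4 and 100.7 CPM at 0 µM and 48.9, 50.6, 46.5 and 61.6 CPM at 100 µM (log2 change -1.02, SE 0.12, adjusted p = 9.4e-13). The groups were apart, and the treated level was also under the 79.6 ± 7.83 CPM of unstimulated cells. Traf1, a receptor adaptor gene, and Il1rn, the gene of the IL-1 receptor antagonist, had log2 changes of -1.57 and -1.17. Tollip, an adaptor that dampens IL-1 receptor signalling, rose from 80.1 to 93.3 CPM to 119 to 141.5 CPM (0.58).

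Adhesion, protease and inflammatory effector genes mostly fell. Of 29 tested members 22 were lower and 1 was higher, with a median log2 change of -1.11. Ptgs2, the gene of the inducible cyclooxygenase (chromosome 1, 150100031 to 150108227, plus strand), measured 760, 732, 668 and 684 CPM at 0 µM. At 100 µM it measured 282, 225, 188 and 241 CPM (log2 change -1.59, SE 0.16, adjusted p = 4.03e-15). Ptges, the synthase that follows it in the making of prostaglandin E2 (chromosome 2, 30889471 to 30929863, minus strand), went from 539, 469, 427 and 401 CPM to 168, 140.4, 136 and 144 CPM. Both enzymes of this route thus fell to about a similar share, 32.9% and 32.0% of the 0 µM level, and Ptges reached the unstimulated 149.7 ± 12.5 CPM.

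Has2, which makes the matrix polysaccharide hyaluronan (chromosome 15, 56665627 to 56694539, minus strand), fell past its unstimulated level. It measured 161.5, 182, 152 and 170.5 CPM at 0 µM and 18.9, 20.05, 15.8 and 16.0 CPM at 100 µM (log2 change -3.22, SE 0.21, adjusted p = 2.22e-26). Without stimulus it stood at 88.4 ± 5.6 CPM, and the 100 µM libraries were lower than those by a log2 change of -2.31 (SE 0.24, adjusted p = 9.9e-15), in a comparison that called 22.2% of all genes. The matrix protease gene Mmp3 fell from 456 to 540.3 CPM to 181 to 229 CPM (log2 change -1.29), and Mmp10 from 21.9 to 45.0 CPM to 1.69 to 4.57 CPM (-3.27). Vcam1, a leukocyte adhesion molecule gene, measured 782, 655, 625 and 615 CPM at 0 µM and 483, 368, 410 and 402 CPM at 100 µM (log2 change -0.68, SE 0.11). Icam1, another adhesion molecule gene, was low, at 21.6, 5.22, 9.61 and 6.16 CPM at 0 µM and at most 1.74 CPM at 100 µM. Its log2 change of -3.59 rested in size on library 1 of the 0 µM group and was -2.96 without it.

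Some of the largest decreases were in genes outside these lists. Serpinb2, a plasminogen activator inhibitor gene (chromosome 1, 107511423 to 107535478, plus strand), had 16.0, 17.0, 13.0 and 11.6 CPM at 0 µM and no count in any library at 100 µM. With the group's floor set at 3 counts, it was at least 23.9-fold lower. Pde4b, the gene of a phosphodiesterase that degrades cyclic AMP, went from 69.7, 72.4, 53.5 and 56.8 CPM to 4.57, 8.72, 8.37 and 5.91 CPM (log2 change -3.22, SE 0.27). Foxa2, a forkhead transcription factor gene, fell from 22.2 to 32.2 CPM to 1.86 to 3.38 CPM (-3.18). Lce1g, a cornified envelope gene, fell from 15.7 to 24.8 CPM to 0.844 to 1.96 CPM (-3.94), and its unstimulated mean was 20.5 CPM, with a log2 difference for the stimulus of -0.03 that did not pass the test (adjusted p = 0.984). Slco4a1, an organic anion transporter gene, had 6.85 to 9.25 CPM at 0 µM and counts in a single library at 100 µM, and its log2 change of -3.50 was -6.38 without that library, number 3.

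Genes downstream of cytokine receptors and of survival signals went both ways. Of 25 JAK-STAT and interferon regulatory factor genes 9 were lower and 2 higher. Socs3, a suppressor of cytokine signalling (chromosome 11, 117966079 to 117970047, minus strand), measured 113, 106, 136 and 131.5 CPM at 0 µM and 42.4, 25.3, 27.0 and 18.6 CPM at 100 µM (log2 change -2.06, SE 0.30). Irf1, a transcription factor gene with NF-κB sites in its promoter, fell from 625 to 767 CPM to 305 to 418.5 CPM (-0.86). Of 21 survival and death regulators 8 were lower and 4 higher. Pim1, a survival kinase gene, measured 294, 219.9, 268 and 267 CPM at 0 µM and 67.2, 80.2, 72.5 and 72.6 CPM at 100 µM (log2 change -1.85, SE 0.14). Ier3, an NF-κB target that limits cell death, fell from 723 to 787 CPM to 391 to 495.5 CPM (-0.78). Gadd45a and Gadd45g, growth arrest genes of the same list, rose instead, from 39.5 to 50.9 CPM to 97.2 to 160.4 CPM (1.497) and from 9.79 to 16.6 CPM to 39.05 to 108 CPM (2.16). Of 5 C/EBP genes 3 were lower, among them Cebpb and Cebpd, partners of NF-κB at the Il6 promoter, with log2 changes of -0.54 and -1.35, and 1 was higher, Cebpg at 0.44.

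Of 37 tested interferon-stimulated genes 0 were called by edgeR and 0 by DESeq2, and 4 had an unadjusted p under 0.05 with either tool. Over all 10766 genes tested, 3861 had such an unadjusted p by edgeR. With RLE scaling 1 was called higher. Zfp36, the gene of an RNA-binding protein that destabilises cytokine transcripts, did not pass the test either. It measured 362, 307, 371 and 416 CPM at 0 µM and 442, 380.1, 404 and 363 CPM at 100 µM, with overlapping groups (log2 difference 0.13, SE 0.16, adjusted p = 0.607). Its relative Zfp36l2 fell from 731 to 869.8 CPM to 438 to 554 CPM (-0.71). Of 7 mRNA decay regulators 2 were lower and 1 was higher.

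Immediate early genes went both ways. Of 38 tested members 17 were lower and 12 higher, where 14.4% and 11.5% of all genes were, and their median log2 change was -0.16. Egr1, a zinc finger transcription factor gene that serum response factor controls, measured 412, 309, 349 and 385.5 CPM at 0 µM and 803, 972, 634 and 726 CPM at 100 µM (log2 change 1.11, SE 0.18, adjusted p = 6.21e-07). All treated libraries lay above all others. Fosb, which encodes an AP-1 subunit, had 4.93, 5.22, 1.37 and 2.74 CPM against 40.4, 48.8, 33.5 and 58.3 CPM (3.61, SE 0.79). Fos, another AP-1 subunit gene, had 27.7, 24.8, 28.1 and 41.8 CPM against 54.1, 95.0, 33.5 and 75.1 CPM, with overlapping groups. Its log2 change of 1.07 (adjusted p = 0.000527) was not called without library number 2 in every group (adjusted p = 0.0531), nor in a fit of the compared groups alone (adjusted p = 0.0519). Klf4, a Krüppel-like factor gene, rose by 1.07 on the log2 scale.

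Other members of the list fell from levels that the stimulus had raised. Egr2, a close relative of Egr1, measured 124, 111, 123 and 123 CPM at 0 µM and 58.7, 68.0, 38.1 and 53.2 CPM at 100 µM (log2 change -1.13, SE 0.19, adjusted p = 8.61e-07). Egr1 and Egr2 thus moved in opposite directions in the same libraries. Fosl1, the gene of the AP-1 subunit Fra-1, went from 171 to 192 CPM to 69.7 to 80.2 CPM (-1.25). Ereg, which encodes a ligand of the epidermal growth factor receptor, went from 251 to 328 CPM to 88.3 to 114 CPM (-1.51). Of 20 MAP kinase feedback genes 6 were lower and 3 higher, where 14.4% and 11.5% of all genes were, with Dusp7, an ERK phosphatase gene, at -0.66 and Spry1, an inhibitor of receptor tyrosine kinase signalling, at 1.89.

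Most of the tested histone genes rose. Of 15 tested genes of the histone clusters 9 were higher and none was lower, with a median log2 change of 1.25, and their share of all counts went from 0.0264% to 0.0880%. This family was picked after its values were seen, and transcripts of histone genes mostly lack the poly(A) tail by which these libraries were made, so the counts may cover few of them. Hist1h1c, a linker histone gene (chromosome 13, 23738808 to 23740367, plus strand), measured 37.0, 45.0, 41.2 and 25.3 CPM at 0 µM and 270.0, 339, 228 and 319.9 CPM at 100 µM (log2 change 2.96, SE 0.28, adjusted p = 7.77e-17). Hist1h2bc, a core histone gene (chromosome 13, 23684199 to 23692908, plus strand), measured 44.4, 30.7, 37.7 and 28.1 CPM against 243, 241, 163 and 229 CPM (2.63, SE 0.23). For the stimulus alone neither passed the test (log2 differences 0.57 and 0.40, adjusted p = 0.547 and 0.619). Hist1h4i rose by 2.58 on the log2 scale. Hist2h3c1 and Hist2h3c2, near-identical H3 genes whose reads could be split between them, rose by 2.53 and 3.31. H1f0, a linker histone gene outside the clusters that is known to be polyadenylated, measured 101, 115, 131 and 111 CPM at 0 µM and 309.8, 438.5, 326 and 360.5 CPM at 100 µM (1.65, SE 0.14, adjusted p = 8.19e-20).

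Targets of bone morphogenetic protein (BMP) signalling rose in part. Of 18 tested BMP and TGF-β target genes 9 were higher and 3 lower, and the median log2 change was 0.48. Id2, an inhibitor of helix-loop-helix transcription factors (chromosome 12, 25093799 to 25097140, minus strand), measured 8.63, 15.0, 16.5 and 13.7 CPM at 0 µM and 59.4, 100.3, 54.9 and 82.7 CPM at 100 µM (log2 change 2.46, SE 0.29, adjusted p = 3.3e-12). The inhibitory Smad gene Smad6 rose from 11.7 to 25.3 CPM to 63.2 to 93.3 CPM (2.00) and Snai2, a zinc finger repressor gene, from 32.7 to 44.4 CPM to 91.1 to 131 CPM (1.44). Id1 measured 226, 215, 238 and 235 CPM at 0 µM and 359, 599.8, 359 and 373 CPM at 100 µM, where library 2 stood apart (0.88, SE 0.13). Atoh8, a helix-loop-helix gene outside the list, rose from 10.5 to 14.4 CPM to 51.5 to 75.9 CPM (2.23).

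Stress genes rose in part. Of 25 genes of the integrated stress response 9 were higher and none was lower, although their median was 0.10. Ddit3, the gene of the transcription factor CHOP, measured 51.8, 63.3, 57.6 and 60.3 CPM at 0 µM and 128, 182, 130.2 and 146 CPM at 100 µM (log2 change 1.33, SE 0.16, adjusted p = 4.27e-11). Chac1, a glutathione-degrading enzyme gene downstream of CHOP, and Sesn2, a sestrin gene, rose by 1.36 and 1.31 on the log2 scale. Chaperones of the endoplasmic reticulum did not follow as a list, with 2 of 19 higher and 1 lower, but Herpud1, which encodes a factor of protein degradation there, rose from 33.6 to 69.8 CPM to 103 to 162 CPM (1.41). Of 20 p53 target genes 9 were higher and none was lower (median 0.36), among them Trp53inp1 and Ccng1 with 0.82 and 0.39. Of 11 clock genes 4 were higher and none was lower, with the repressor gene Cry2 at 1.24 and the nuclear receptor gene Rora at 1.01. Slc30a1, a zinc exporter gene, rose from 4.79 to 9.79 CPM to 25.1 to 36.3 CPM (2.12).

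Antioxidant genes did not move as a block. Of 26 NRF2 target genes 5 were higher and 8 lower (median -0.08). Hmox1, the gene of heme oxygenase 1, measured 75.2, 87.4, 104 and 123 CPM at 0 µM and 166, 190.1, 239.9 and 259 CPM at 100 µM (log2 change 1.13, SE 0.18, adjusted p = 1.13e-07). Abcc1, a drug export pump gene, and Txnrd1, a thioredoxin reductase gene, fell by 0.91 and 0.55 on the log2 scale. Of 5 tested aryl hydrocarbon receptor genes 2 were lower and 1 was higher. The receptor gene Ahr fell from 73.3 to 81.4 CPM to 25.3 to 42.2 CPM (-1.29), and its target Cyp1b1 measured 285.5 to 412 CPM against 214 to 302 CPM (-0.52, adjusted p = 0.00281), a call lost without library number 1 or 3 in every group. Of 20 heat shock chaperone genes 7 were lower and 2 higher, with Hsph1 at -0.93 and Dnajb1 at 0.81.

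Genes of matrix, contraction and lipid synthesis were lower in part. Of 19 YAP and serum response target genes 12 were lower and 2 higher (median -0.36). The 2 called higher were genes of matricellular proteins. Ccn2 measured 37.6, 62.6, 49.4 and 43.8 CPM at 0 µM and 82.2, 93.3, 67.9 and 88.6 CPM at 100 µM (log2 change 0.78, adjusted p = 0.0203), a value named after it was seen and not called without library 1 of the 0 µM group (adjusted p = 0.0782) or library 2 of the 100 µM group (0.0553). Ccn1 (chromosome 3, 145646976 to 145649981, minus strand) measured 401, 387, 535 and 631 CPM at 0 µM and 1432, 1982, 1696 and 1406 CPM at 100 µM (log2 change 1.74, SE 0.17, adjusted p = 4.26e-16). Zyx, which encodes the focal adhesion protein zyxin, fell by 0.53 on the log2 scale. Of 24 collagen and matrix genes 9 were lower and 2 higher, with the protease inhibitor gene Timp1 at -1.06, the microfibril gene Fbn1 at -0.998 and Col3a1, also a fibroblast marker, at 0.43. Of 27 sterol and fatty acid synthesis genes 9 were lower and none was higher, among them Fasn, the fatty acid synthase gene, at -0.64. Of 23 hypoxia and glycolysis genes 5 were lower and none was higher. Genes of DNA replication and mitosis had 3 of 34 lower and none higher, below the share of all genes. Of 11 fibroblast markers 4 were lower and 2 higher, with Pdgfra at -0.62 and Prrx1 at -0.53 among the lower and Col3a1 at 0.43 among the higher.

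**Figure D2:**
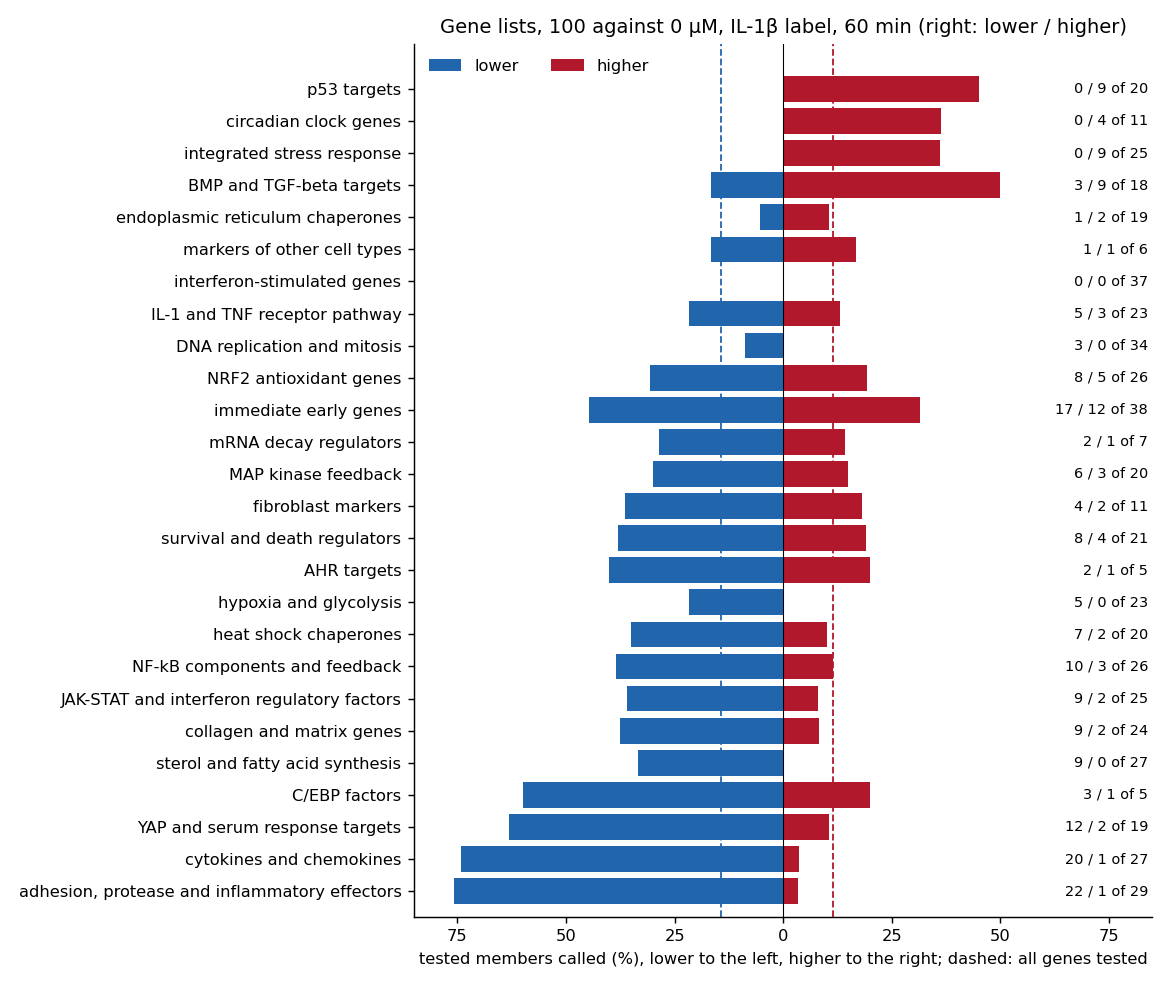
Share of the tested members of each gene list that was called lower (blue, left) or higher (red, right) at 100 µM against 0 µM, in percent, with the counts at the right margin. Dashed lines mark the 14.4% of all genes that were lower and the 11.5% that were higher, and the effector and cytokine lists reach furthest to the left with 22 of 29 and 20 of 27 members lower.

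The concentrations below 100 µM were examined at the same time. Against the same 0 µM libraries, 50 µM changed 1889 genes (825 higher and 1064 lower, 17.5% of those tested) and 25 µM changed 1306 (622 and 684, 12.1%). The count at 25 µM was 863, 770 and 771 without library number 2, 3 or 4 in every group. Il6 went from 244 ± 39.0 CPM at 0 µM to 55.9 ± 8.31 CPM at 25 µM, 24.6 ± 2.32 CPM at 50 µM and 10.7 ± 4.21 CPM at 100 µM (SD, n = 4), and Cxcl5 from 651 ± 32.2 to 280.4 ± 22.8, 196 ± 2.78 and 97.3 ± 13.9 CPM. Both had thus lost most of their 0 µM level at the lowest concentration. Csf2, at 146 ± 12.3, 127 ± 8.48, 92.9 ± 12.7 and 46.5 ± 10.4 CPM, and Socs3, at 122 ± 14.1, 121 ± 27.4, 75.5 ± 26.1 and 28.3 ± 10.1 CPM, did not pass the test at 25 µM (adjusted p = 0.469 and 0.987). Hist1h1c stood at 37.1 ± 8.52, 77.9 ± 14.2, 116 ± 22.8 and 289 ± 50.3 CPM and Egr1 at 364 ± 44.6, 451 ± 25.0, 513 ± 68.1 and 784 ± 143 CPM. Nfkbia stood at 1581 ± 55.8, 1423 ± 120, 1366 ± 85.5 and 1208 ± 166 CPM and was called at 100 µM alone.

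Set directly against 50 µM, 100 µM changed 225 genes (2.09%), 80 higher and 145 lower. With RLE scaling 100 were higher and 101 lower, which is 49.8% higher against 35.6%, and the count fell to 93, 112, 69 and 77 without library number 1, 2, 3 or 4 in every group. Has2 went from 60.7 ± 11.8 to 17.7 ± 2.11 CPM between these concentrations (log2 change -1.77, SE 0.25, adjusted p = 2.12e-07). Inhba, which encodes an activin subunit, measured 94.9 ± 14.8, 114.9 ± 14.6, 72.5 ± 10.4 and 28.7 ± 6.07 CPM over the 4 concentrations (-1.32 from 50 to 100 µM, adjusted p = 1.67e-05). Tnfaip3 fell by 0.84 on the log2 scale over this step (adjusted p = 0.00114) and Csf2 by 0.98. Hist1h2bc rose by 1.68 (adjusted p = 1.94e-08), as 6 of the 15 histone genes were higher and none was lower, where 0.743% of all genes were higher. Il6 had a log2 difference of -1.17 over this step that did not pass the test (SE 0.43, adjusted p = 0.157), nor did Id2 with 0.81 (SE 0.24, adjusted p = 0.0505).

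**Figure D3:**
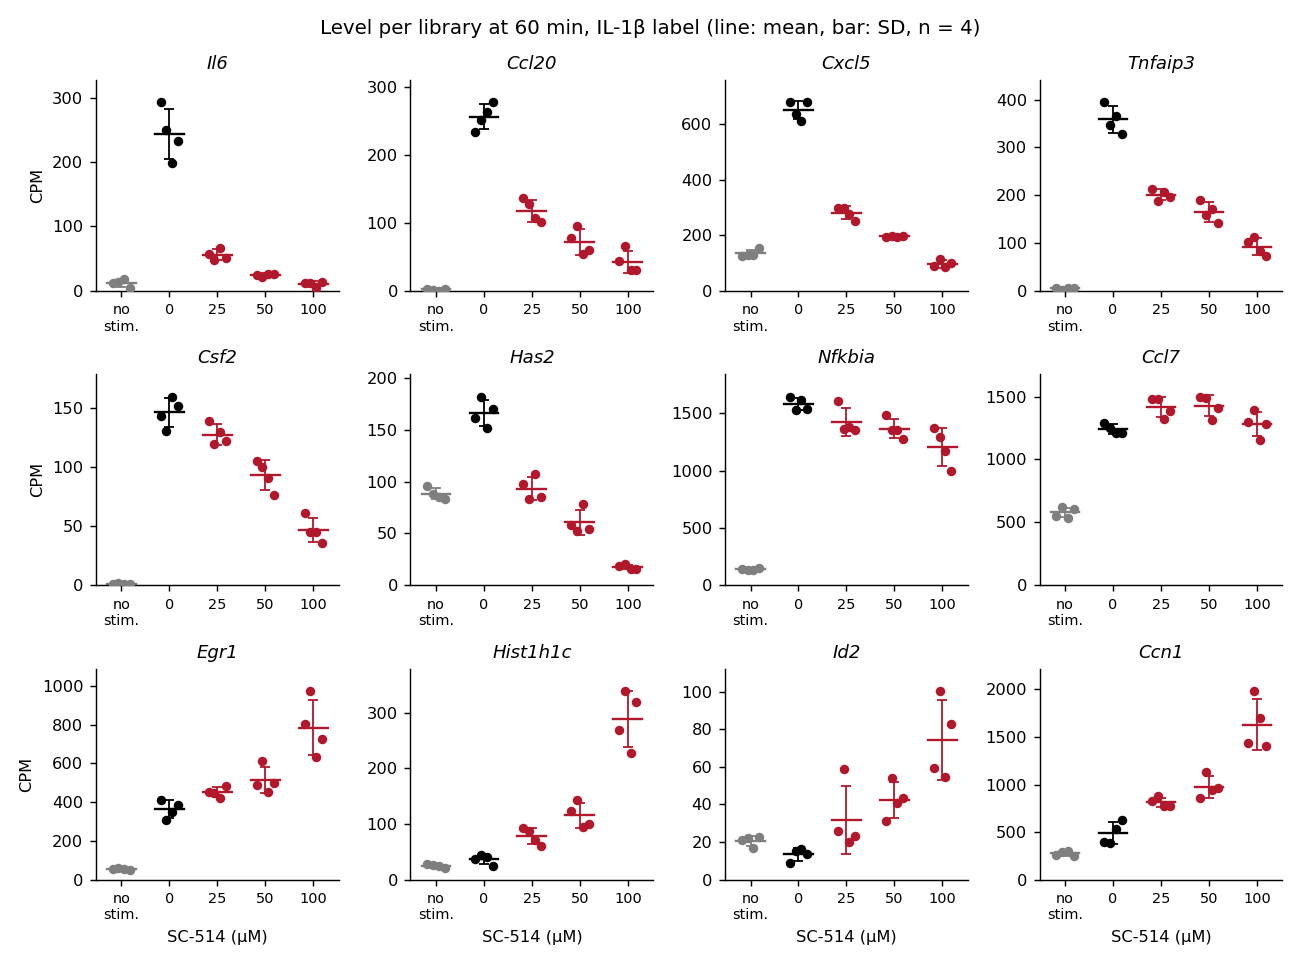
CPM in every library (points) with the mean (line) and SD (bar, n = 4) for unstimulated cells (grey) and for the IL-1β label at 60 min with 0 (black), 25, 50 and 100 µM SC-514 (red). Il6 drops from 244 to 55.9 CPM at 25 µM, Csf2 and Has2 go on falling to 100 µM, Ccl7 stays near 1240 to 1427 CPM, and Hist1h1c reaches 289 CPM at 100 µM.

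The same contrast was available in other libraries, those labelled TNF-α at 60 min, where 100 µM changed 2367 genes (22%), 896 higher and 1471 lower. With RLE scaling these were 1396 and 1077, so that 56.4% rather than 37.9% of the calls were higher, and DESeq2 gave 956 and 851. RLE scaling without 2 shallow libraries elsewhere in the series, added after the data were seen, gave 964 and 1419. Of the 1552 genes lower with the IL-1β label 976 were lower here too, which is 62.9% of that list and 66.3% of the other, and 19 genes were higher with the IL-1β label and lower with the TNF-α label. Among the higher genes 492 were shared, 39.7% and 54.9% of the lists, and 1 gene was lower with the IL-1β label and higher with the TNF-α label. Il6 stood at 299.5 ± 29.3 CPM at 0 µM and 12.1 ± 5.14 CPM at 100 µM with the TNF-α label, a log2 change of -4.55 beside -4.47. Cxcl5 had -2.95 beside -2.75, Has2 -2.85 beside -3.22, Hist1h1c 2.77 beside 2.96 and Id2 2.56 beside 2.46. Nfkbia went from 2150 ± 129 to 1807 ± 80.5 CPM, a log2 difference of -0.25 that did not pass the test (SE 0.12, adjusted p = 0.117). Ccl7 again had overlapping levels, at 1419 ± 36.2 and 1398 ± 46.3 CPM.

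A test of the difference between the 2 changes called 75 genes (0.697%), 56 with a higher and 19 with a lower value for the IL-1β label. RLE scaling gave 52 and 42, which is 55.3% higher against 74.7%, and DESeq2 49 and 29. Leaving number 3 or number 4 out of every group gave 23 and 14 calls. The label and the library set cannot be told apart here. The 56 with a higher value were 0.52% of the 10766 genes tested. Of them, 27 were ribosomal protein genes by symbol, pseudogenes included. Of 94 such genes tested 31 were higher and 4 lower with the IL-1β label, while 1 was higher and 31 lower with the TNF-α label, or 5 and 18 with RLE scaling. Of all genes tested 8.32% were higher and 13.7% lower with the TNF-α label. Rplp1, an acidic ribosomal protein gene, measured 1378, 1490, 1594 and 1508 CPM at 0 µM and 1783, 1807, 1997 and 2010 CPM at 100 µM with the IL-1β label (log2 change 0.35), and the change was -0.16 with the TNF-α label (difference 0.51, SE 0.09, adjusted p = 3.38e-05). The elongation factor gene Eef1g had 0.19 and -0.37 (difference 0.55, adjusted p = 5.56e-05), where the first value was not called without library 1 or 3 of the 0 µM group or library 3 of the 100 µM group (log2 changes 0.15, 0.18 and 0.14). In the other direction, Il1rap changed by -1.02 with the IL-1β label and -0.32 with the TNF-α label (difference -0.70, SE 0.17, adjusted p = 0.013), and Sdc1, a heparan sulfate proteoglycan gene, by -1.27 and -0.71 (difference -0.56, adjusted p = 0.00767). Ptges fell less with the IL-1β label, by -1.64 beside -2.19 (difference 0.56, adjusted p = 0.0277). Of the 27 cytokine and chemokine genes 0 differed past the test by edgeR, 3 at an unadjusted p under 0.05. Over all 10766 genes tested 0.697% were called and 1017 had such an unadjusted p, so these counts do not set the list apart. DESeq2 gave an adjusted p for 11 of them and called 0, with 2 at an unadjusted p under 0.05.

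**Figure D4:**
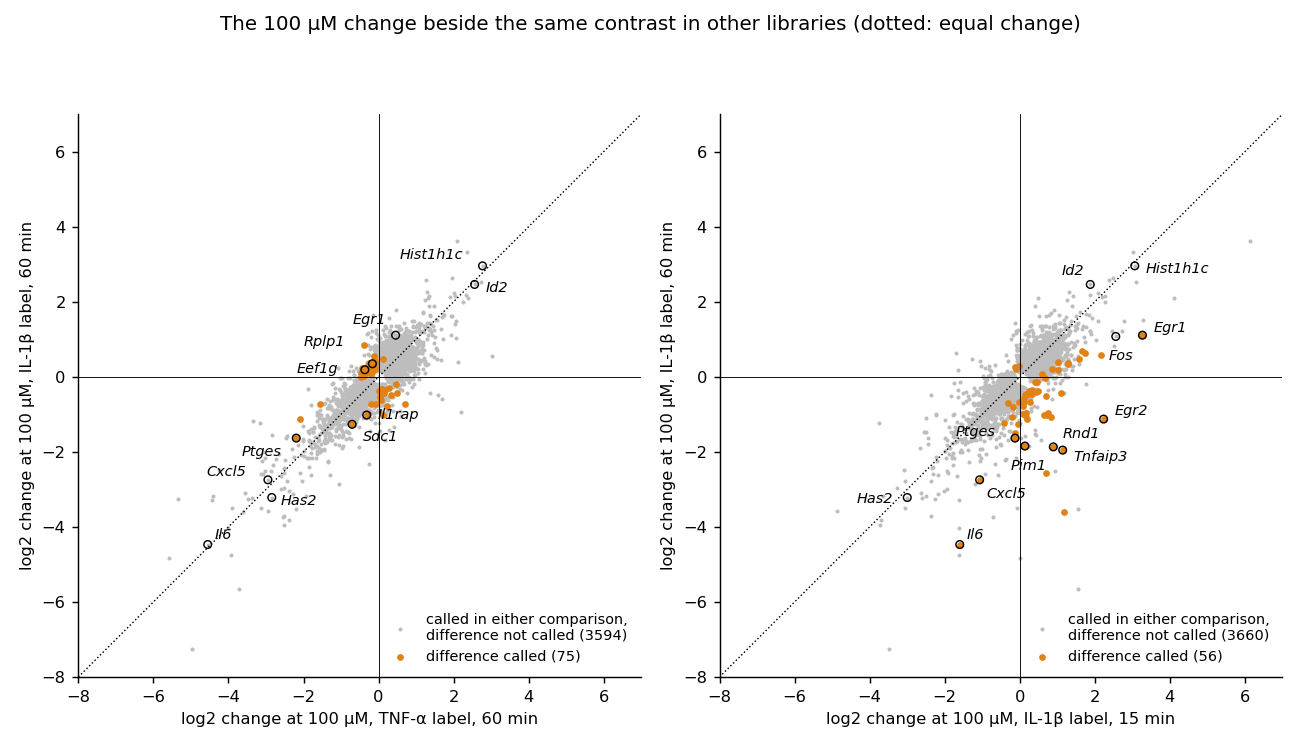
Fitted log2 change at 100 µM with the IL-1β label at 60 min (vertical axis) against the same change with the TNF-α label at 60 min (left) and with the IL-1β label at 15 min (right). Grey points are genes called in either comparison and orange points those whose difference was called, 75 and 56. Il6 lies on the dotted line of equal change at the left and below it at the right.

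At 15 min with the IL-1β label, when the inhibitor had been present for little longer than its pretreatment, 100 µM changed 2670 genes (24.8%), 1210 higher and 1460 lower. RLE scaling turned this into 1663 and 1137 (59.4% higher against 45.3%) and DESeq2 into 1215 and 921. Without the shallow libraries, RLE scaling gave 1233 and 1458. Of the genes lower at 60 min 1016 were lower at 15 min, 65.5% and 69.6% of the lists, and of those higher at 60 min 717 were higher, 57.9% and 59.3%. In opposite directions were 10 genes, all lower at 60 min and higher at 15 min. Has2 was already at 16.8 ± 3.40 CPM against 134 ± 14.4 CPM at 0 µM, a log2 change of -2.999 beside -3.22 at 60 min. The values of Hist1h1c were 3.06 beside 2.96, and those of Lce1g -3.71 beside -3.94.

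The difference between the times was called for 56 genes (0.52%), 53 of them lower and 3 higher at 60 min. Dropping number 1, 3 or 4 from each group left 30, 31 and 36 genes, and 115 were called without the filter on low counts. Tnfaip3 measured 6.84 ± 2.10 CPM at 0 µM and 15.2 ± 3.15 CPM at 100 µM at 15 min, a log2 change of 1.14 against -1.96 at 60 min (difference -3.10, SE 0.46, adjusted p = 6.86e-07). Nfkbia had 0.49 against -0.39 (difference -0.88, adjusted p = 0.00444). Ptges, Pim1 and Rnd1, a small GTPase gene, differed by -1.51, -1.99 and -2.76, and Il6 by -2.87 (SE 0.66, adjusted p = 0.0088). Egr1 was higher at 100 µM at both times, by 3.27 at 15 min and 1.11 at 60 min (difference -2.16, adjusted p = 1.08e-07). Its level at 0 µM was 66.2 ± 18 CPM at 15 min and 364 ± 44.6 CPM at 60 min, and at 100 µM 640 ± 157 and 784 ± 143 CPM. The change of Egr2 went from 2.23 to -1.13 (difference -3.36, adjusted p = 1.49e-09). Of the 27 cytokine and chemokine genes 5 were lower in this difference and none was higher, where 0.492% of all genes were lower.

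Over the whole series of times the genes followed different courses. Il6 stayed between 6.76 and 14.9 CPM on average at 100 µM from 15 to 360 min, while at 0 µM it climbed from 22.2 ± 2.74 CPM at 15 min to 244 ± 39.0 CPM at 60 min and came down to 77.6 ± 20.3 CPM at 360 min. Tnfaip3 was higher at 100 µM at 15 min, at 15.2 ± 3.15 against 6.84 ± 2.1 CPM at 0 µM. At 60 min it was lower, at 92.2 ± 17.4 against 359 ± 28.2 CPM. At 120 min it stood at 111 ± 40.1 against 145 ± 37.2 CPM, and the libraries of the 2 concentrations overlapped (82.8 to 169.9 and 112.7 to 188.3 CPM). Its libraries at 100 µM also overlapped between 60 and 120 min, at 72.6 to 111.6 CPM and 82.8 to 169.9 CPM, so no later peak can be read from them. Nfkbia was lower with the inhibitor at 30 and 60 min (311 ± 71.2 against 541 ± 89.8 CPM at 30 min) and higher on average at 120 and 360 min (653 ± 96.4 against 501 ± 60.9 CPM at 360 min). Hist1h1c lay at 289 to 323 CPM on average at 100 µM from 15 to 120 min and at 66.7 ± 14.8 CPM at 360 min, against 25.4 to 48.7 CPM at 0 µM. Id2 likewise lay at 61.6 to 79.2 CPM up to 120 min and at 11.2 ± 2.65 CPM at 360 min. The level of these genes over all times is given as a description, without a test.

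**Figure D5:**
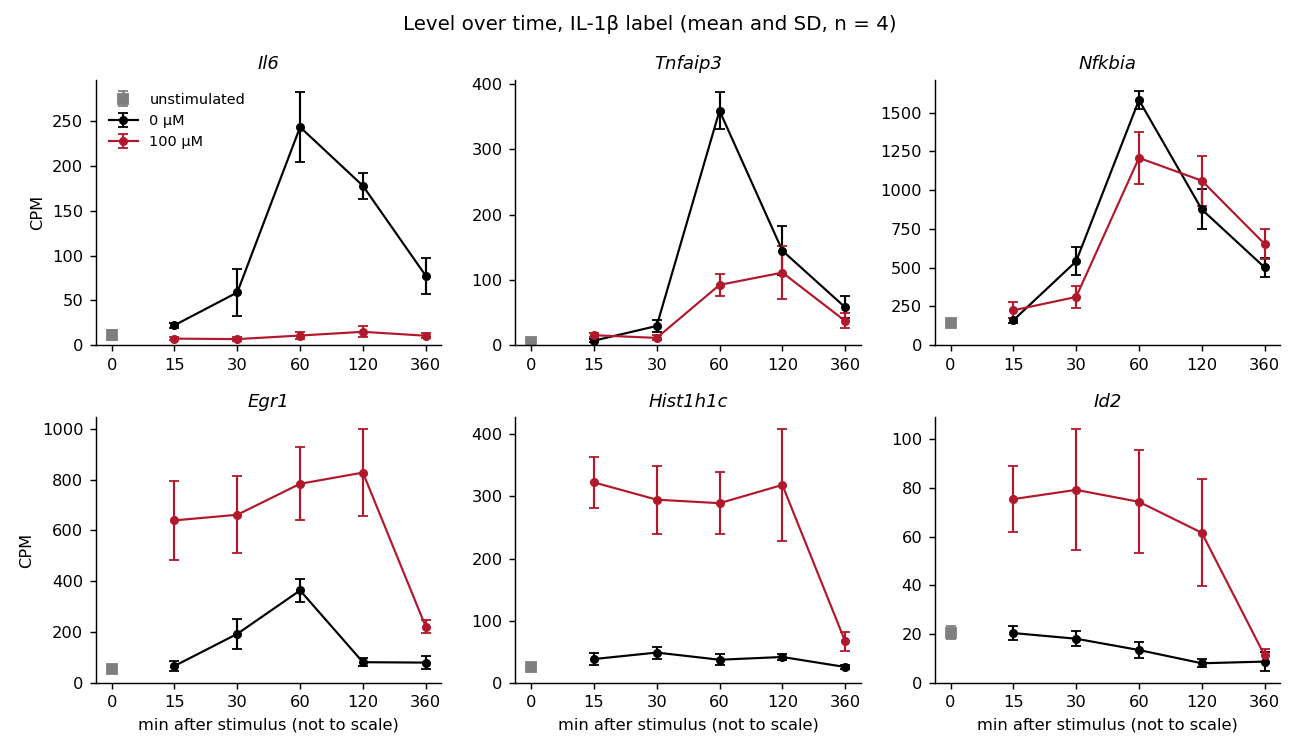
Mean CPM with SD (n = 4) over time after the stimulus labelled IL-1β, at 0 µM (black) and 100 µM SC-514 (red), with unstimulated cells (grey square); times are evenly spaced. Il6 stays at or below 14.9 CPM with the inhibitor, Nfkbia lies below the untreated level at 60 min and above it at 120 and 360 min, and Hist1h1c and Id2 are high from 15 to 120 min and come down at 360 min.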

How the data were processed

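RNA of mouse 3T3 fibroblasts was made into 3′ tag libraries from poly(A) transcripts, per the labels' protocols. The authors deposited raw read counts per gene, not normalised. Bowtie2 and GRCm38 (mm10) are named in the submitters' processing notes, and neither counter nor annotation is given in the sources used here. The table holds 22070 genes in 41 groups of 4 libraries, and each library is named by 4 of the 656 sample records. No pair of the 246 library pairs compared within groups was identical. Symbols and positions came from an annotation table that matched 21878 IDs. Of the IDs without a match, 19 were tested.

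Genes passing filterByExpr by group (10766) were fitted in 1 model over the 41 groups with edgeR 4.0.16 (R 4.3.3), with TMM factors (0.964 to 1.03 in the 8 libraries), a robust quasi-likelihood fit with 123 residual degrees of freedom, contrasts between groups and Benjamini-Hochberg adjustment at 0.05. CPM is the count over the library total times its TMM factor. Fold changes are fitted log2 values with their SE. Data were simulated for 100 against 0 µM (10766 genes) with the spread that the model had fitted. Changes of 1.5-, 2- and 4-fold were given to 67, 67 and 66 genes, drawn from the more abundant ones alone. Of these, 68.7%, 92.5% and 100% were recovered, with 7 false calls. Genes of low count, and data with as many changes as were called here, were not simulated. Intervals of ratios are exact 95% binomial intervals and floors are 3 counts per group.

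Members and lists were chosen with earlier results of these data known. Genes were named by rank among those with 5 CPM or more in the higher group, a call and groups that did not overlap (15 falling, 12 rising), by the 6 smallest p-values in each direction of each difference, the 5 largest changes each way between 50 and 100 µM, up to 4 members of each of 26 lists by p, and a fixed set of NF-κB and stress genes. H1f0 follows from the rule for promoters, and Cxcl12 and Ccn2, the histone and ribosomal protein families and the comparison of the TNF-α label with unstimulated cells were added after values were seen. Some genes that these rules select are not reported here. Promoter sequences came from RefSeq (GRCm38.p6). Cxcl5 was looked for there and is named only. Alternatives were RLE factors, other filters, the compared groups alone, the replicate block, leaving out libraries, and DESeq2 1.42.0.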

Additional observations from a re-analysis of the deposited data

Results flagged for a closer look

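Of 204 groups of 4 libraries that were checked for a library standing apart from the other 3, 10 held one. Chance gives about 1 in 20 where values are normally distributed. That rate does not cover a gene with counts in 1 library alone, since that library then stands apart whatever its level. The genes flagged in the 0 µM group were Mmp3, highest at 540.3 CPM, Egr2, lowest at 110.9 CPM, and Cxcl9, highest at 25.89 CPM. At 100 µM the single library with a count stood apart for Il1a (0.8718 CPM), Il23a (0.6523 CPM), Csf3 (0.6523 CPM) and Slco4a1 (2.789 CPM). Id1 (599.8 CPM) and Lce1g (1.957 CPM) had 1 high library and Ccng1 1 low library (380.9 CPM) at 100 µM.

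The 100 µM change differed between the IL-1β and the TNF-α label, tested as an interaction in edgeR, for 75 genes. Those named are Rplp1, with a log2 difference of 0.51, Eef1g with 0.55, Ptges with 0.56, Il1rap with -0.70 and Sdc1 with -0.56.

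Between 60 and 15 min the change differed by the same kind of test for 56 genes. Among feedback and survival genes the log2 difference was -3.10 for Tnfaip3, -0.88 for Nfkbia, -1.08 for Nfkbie, -0.88 for Ier3 and -1.99 for Pim1. Among cytokines and effectors it was -2.87 for Il6, -3.28 for Ccl20, -1.68 for Cxcl5, -4.77 for Icam1, -0.96 for Vcam1, -1.47 for Ptgs2 and -1.51 for Ptges. The value of Icam1 rests on few counts, since at 15 min no library exceeded 1.41 CPM at 0 µM or 3.24 CPM at 100 µM. Immediate early genes and Rnd1 also differed, with -2.16 for Egr1, -3.36 for Egr2, -1.20 for Fosl1, -1.38 for Ereg and -2.76 for Rnd1.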

How the results depend on the processing

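The count for 100 against 0 µM (2791) stayed between 2049 and 3122 under the alternatives run. The counts that moved by over 1.5 times were those at 25 µM (1306; 862 with DESeq2; 770 to 1049 without 1 library number), 100 against 50 µM (225; 110 with DESeq2; 69 to 112), the IL-1β label against unstimulated cells (362; 230 with DESeq2; 230 to 278), the difference between labels (75; 49 with the compared groups alone; 14 to 71) and that between times (56; 115 without a filter; 30 to 42). The cause was not tested. With the replicate block, 645, 168 and 90 genes were called for the last 3 of these and 3122 for 100 against 0 µM. Same-numbered libraries of the 2 groups had correlations of 0.06, -0.02, 0.06 and 0.06 in their deviations, and differently numbered ones -0.059 to 0.033. All were under the 0.1 asked for pairing and the labels give no shared origin, so the numbers were not treated as pairs. This cutoff cannot exclude a weaker link by number. Of 2040 values of named genes under alternatives 2009 kept their direction and side of the threshold, 21 values of 7 genes lost the call, and Chuk passed it without library 1 of the 100 µM group (-0.39, adjusted p = 0.0489). Rela, never called, changed sign with RLE factors and with DESeq2 (both 0.021), with at least 5 CPM (0.002), without the shallow libraries (0.004) and in some leave-outs (-0.082 to 0.051 over all of them). RLE factors without 2 shallow libraries elsewhere in the series were an alternative added after seeing the data. They brought the higher share of calls back to 45.2% for 100 against 0 µM with the IL-1β label at 60 min. With the TNF-α label it went back to 40.5% and at 15 min to 45.8%. For 100 against 50 µM it was 38.4% and for the difference between labels 72%. DESeq2 was run with the 2 shallow libraries included. At 1068541 or more counts per library, genes under 1.85 to 2.79 CPM were not measured with precision.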
